A study of Mus musculus with 2 samples.

Results

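Potassium channel genes were taken here as every gene of the H3K36me2 peak lists whose symbol is Kcn, family letters and a number, with *Kcnt1* left out. By this rule 61 of the 18187 genes named in the lists were potassium channel genes. They carried 108 of the 19976 peaks of the *Nsd2* fl/fl library and 139 of the 23518 peaks of the *Nsd2* ΔIE library. A RefSeq gene table holds 91 such symbols, so 30 of the family had no peak in either library. The 2 libraries came from whole colon of male C57BL/6J littermates that carry floxed *Nsd2* alleles and were put on a high-fat cholesterol diet (HFCD) at 7 to 8 weeks of age, for 16 weeks in the deposited design text and 18 weeks in the methods. In *Nsd2* ΔIE mice a Cre driven by the Villin promoter, which is active in the intestinal epithelium, deletes *Nsd2*. Muscle, nerve and immune cells of the same tissue keep the gene. Whether the *Nsd2* fl/fl mice carry Cre, and how many animals went into a library, is not given in the sources used here.

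Potassium channels let potassium leave the cell along its gradient and so set the membrane voltage. In colonic epithelium, basolateral and apical potassium channels keep up the electrical force for chloride secretion and release potassium into the lumen. In the muscle layers, interstitial cells and enteric nerves, other channels end action potentials and pace contraction. H3K36me2 is a histone mark that NSD2 and related enzymes place over gene bodies and the space between genes. In CUT&Tag, an antibody against the mark directs the transposase Tn5 to the chromatin, and a peak is a stretch where the tagged DNA piles up. A peak of this mark does not measure the expression of a channel.

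Of the 91 channel symbols, 51 had a peak in *Nsd2* fl/fl, 52 in *Nsd2* ΔIE and 42 in both, and 67.0% had one in at least 1 library. Over all 21900 protein-coding genes of the RefSeq table, 43.4% had a peak in at least 1 library, 30.9% had one in *Nsd2* fl/fl, and 32.9% had one in *Nsd2* ΔIE. The channel genes that were listed have long transcripts, with a median span of 32.3 kb against 10.9 kb over all listed genes. Of the 18187 listed genes, 9494 matched a protein-coding gene of that table, as all 61 channel genes did. Comparisons with all listed genes, here and below, thus also set coding genes beside other loci. The 51 channel genes with a peak in *Nsd2* fl/fl carried 2.12 peaks each, against 1.6 over all genes with a peak in that library, and the 52 of *Nsd2* ΔIE carried 2.67 against 1.73. Among transcripts under 20 kb, 61.9% of the 21 channel genes had a peak in both libraries, against 39.3% of all listed genes of that size. Between 20 and 100 kb the shares were 82.6% of 23 and 48%, and above 100 kb they were 58.8% of 17 and 59.8%. With 1 library per genotype, no difference below has a replicate check, no test was made, and the intervals given cover counting error only. In whole tissue, a change in the mix of cells and a change of the mark in each cell cannot be told apart.

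The peaks over the channel genes were of ordinary width and strength. In *Nsd2* fl/fl their median width was 4732 bp beside 4643 bp over all peaks, and in *Nsd2* ΔIE 3444 bp beside 3426 bp. The summed signal divided by width, used only within a library because no scaling between the libraries is stated, reached 6.12 per bp at the median channel peak of *Nsd2* fl/fl, beside 6.14 over all peaks, and 6.27 beside 6.32 for *Nsd2* ΔIE. In *Nsd2* fl/fl the densest channel peaks lay in an intron of *Kcnab2*, at 11.7 per bp, in an intron of *Kcnk1*, at 10.9 per bp, and in an exon of *Kcnn1*, at 9.25 per bp. In *Nsd2* ΔIE the densest ones belonged to *Kcns3* (12.4 per bp) and *Kcnn1* (11.8 per bp). Together the peaks covered 578355 bp, or 0.562% of the called length of *Nsd2* fl/fl, and 535929 bp, or 0.608% of that of *Nsd2* ΔIE.

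A change was described by covered length, the summed width of a gene's peaks in each library, with *Nsd2* ΔIE set over *Nsd2* fl/fl on the log2 scale. A ratio below -0.5 counts as less length and one above 0.5 as more, and a gene with peaks in only 1 library counts with that side. Where a length is set against another, *Nsd2* fl/fl comes first. The channel genes were evenly split, with 23 having less length in *Nsd2* ΔIE, 23 more and 15 similar length, out of 61. Over all listed genes, 43.3% had less, 39.7% more and 16.9% similar length. Of the 23 with less length, 9 had a peak only in *Nsd2* fl/fl, and of the 23 with more length, 10 had a peak only in *Nsd2* ΔIE. These are 14.8% and 16.4% of the channel genes, beside 25.2% and 31.5% of all listed genes. The median log2 ratio over the 42 genes with peaks in both libraries was -0.14, against -0.32 over all 7870 such genes. Relative to that shift of all genes the channel median was 0.18, and 20 channel genes then had less and 26 more length. The shares over all listed genes given above are not centred, so this split has no matching background.

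**Figure D1:**
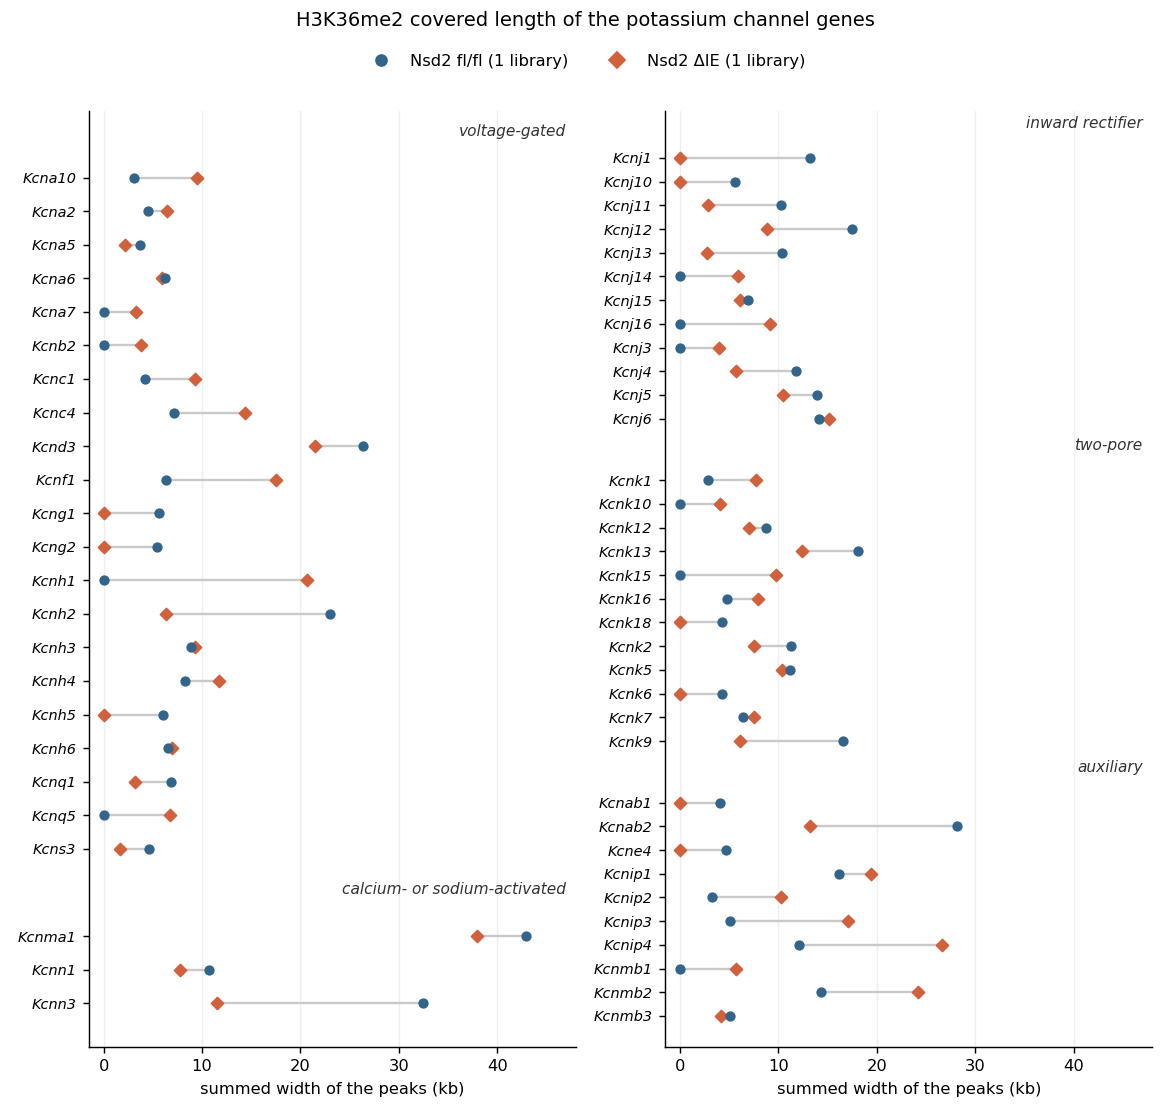
Summed width of the H3K36me2 peaks annotated to each of 58 potassium channel genes, in kb, with circles for the *Nsd2* fl/fl library and diamonds for the *Nsd2* ΔIE library and a line joining the pair; a symbol at 0 means that no peak was listed. *Kcnn3* goes from 32465 bp to 11559 bp, and *Kcnh1* has 20690 bp in *Nsd2* ΔIE alone.

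The split of covered length is given by family, beside 43.3% with less and 39.7% with more length over all listed genes. Of the 12 inward rectifiers, 6 had less, 3 more and 3 similar length, and the median log2 ratio of the 7 with peaks in both libraries was -0.99. Inside the gene spans, *Kcnj13* and *Kcnj5* had more and *Kcnj15* had less length. Of the 10 auxiliary subunits, 3 had less, 5 more and 2 similar length, with a median of 0.75 over 7. The 24 voltage-gated channels had less length in 8 and more in 11, with a median of 0.09 over 17, and the 12 two-pore channels had less in 5 and more in 4, with a median of -0.22 over 8. These are counts of few genes in 1 library a side, and no difference between families was tested. With equal numbers of peaks in both lists, the split of less to more was 8 to 3 for inward rectifiers, 3 to 5 for auxiliary subunits, 9 to 9 for voltage-gated and 5 to 2 for two-pore channels, while centring turned the last to 3 to 5. Among the strongest 50% of peaks the splits were 6 to 5, 1 to 4, 8 to 8 and 3 to 3 in the same order.

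**Figure D2:**
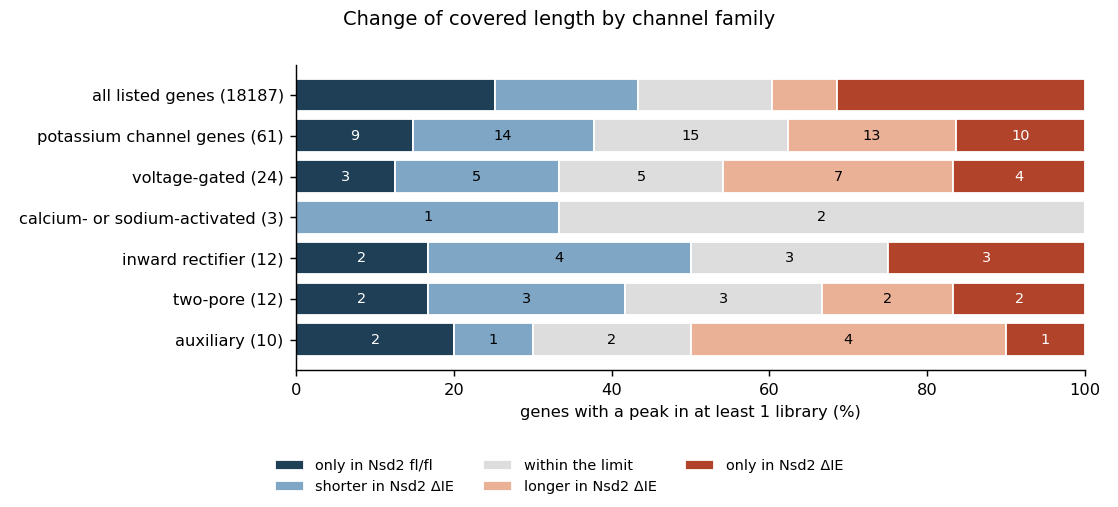
Share of the listed genes, in percent, by change of covered length, for all 18187 listed genes, all 61 potassium channel genes and each of the 5 channel families, with the number of genes written in the bars and the limit at a log2 ratio of 0.5. Inward rectifiers have no gene that is longer in *Nsd2* ΔIE with peaks in both libraries, and auxiliary subunits have 4.

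Among the voltage-gated channels, *Kcnh2* had a broad domain in *Nsd2* fl/fl. *Kcnh2* encodes the ERG channel, which repolarises cardiac and smooth muscle. In *Nsd2* fl/fl a peak of 18934 bp over the start of an inner transcript, on chromosome 5 from 24522226 to 24541159, ranked 53 of 19976 by summed signal, and a second peak of 4037 bp lay over the 5′ end of the gene. In *Nsd2* ΔIE 1 peak of 6385 bp was listed and none at the 5′ end, and it lay wholly inside the broad one. Its length was 22971 bp against 6385 bp, a log2 ratio of -1.85, and the *Nsd2* ΔIE peak ranked 754 of 23518 in its own list.

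Other members went the other way or stayed level. *Kcnq5*, which encodes a subunit of the M-current channel that restrains repeated firing of nerve cells, had 6752 bp in 2 peaks, both of *Nsd2* ΔIE. *Kcnh1*, the ether-à-go-go channel, had 5 peaks and 20690 bp in *Nsd2* ΔIE, 2 of them at promoters, and no peak annotated to it in *Nsd2* fl/fl. Of the relatives of *Kcnh1* and *Kcnh2*, *Kcnh3* and *Kcnh6* were similar (log2 ratios 0.07 and 0.09), *Kcnh4* lay just past the limit at 0.50, with 8244 bp against 11679 bp, and *Kcnh5* had 5991 bp in *Nsd2* fl/fl alone.

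*Kcnc1* and *Kcnc4*, whose channels open at high voltage in fast-firing neurons, had more length in *Nsd2* ΔIE. *Kcnc1* had 4169 bp against 9299 bp, a log2 ratio of 1.16. *Kcnc4* had 7150 bp against 14382 bp, a log2 ratio of 1.01 that was 0.26, within the limit, with equal numbers of peaks in both lists. The *Kcnc1* and *Kcnc4* peaks of *Nsd2* fl/fl lay wholly inside wider *Nsd2* ΔIE peaks, of 6888 bp and 8572 bp. The 5 listed *Kcna* genes were mixed. *Kcna10* had 3055 bp against 9469 bp and *Kcna2* 4527 bp against 6426 bp, both more, although *Kcna2* at a log2 ratio of 0.51 lay just past the limit. *Kcna5*, a delayed rectifier of smooth muscle, had 3664 bp upstream of the gene in *Nsd2* fl/fl and 2135 bp over its start site in *Nsd2* ΔIE. *Kcna6* was similar and *Kcna7* had a peak in *Nsd2* ΔIE only. *Kcnd3*, which carries a transient current in interstitial cells and heart, had 5 *Nsd2* fl/fl peaks over 26395 bp and 6 *Nsd2* ΔIE peaks over 21493 bp, a log2 ratio of -0.30. With equal numbers of peaks in both lists the *Kcnd3* ratio was -0.75, past the limit.

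Of the electrically silent subunits, which change the behaviour of *Kcnb* channels, 4 had a peak. Less length in *Nsd2* ΔIE was found at 3 of these 4, beside 43.3% of all listed genes. *Kcng3*, *Kcng4*, *Kcns1*, *Kcns2*, *Kcnv1* and *Kcnv2* had no peak. *Kcng1* (5584 bp) and *Kcng2* (5433 bp) had a peak annotated to them in *Nsd2* fl/fl alone. The peak annotated to *Kcng2* lay outside its span. Inside that span, peaks annotated to other genes covered 14046 bp against 1578 bp, and an overlapping pair of them lay at the 5′ end. *Kcns3* had a promoter peak of 4642 bp in *Nsd2* fl/fl and a distal one of 1629 bp in *Nsd2* ΔIE. *Kcnf1* had more length, with 6380 bp against 17524 bp (log2 ratio 1.46), but 4 of its 5 *Nsd2* ΔIE peaks lay outside the gene. Counting only peaks in or beside the gene turned its log2 ratio to -1.03 and that of *Kcna2* to -0.50. Inside the gene spans, however, both genes had more length in *Nsd2* ΔIE. *Kcnf1* had 1339 bp against 3130 bp there and *Kcna2* had 1516 bp against 3040 bp. *Kcnb2* itself had 1 promoter peak, of 3786 bp, in *Nsd2* ΔIE.

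By nearest gene, the calcium-activated channel genes *Kcnma1* and *Kcnn3* had the most peaks of the channel genes in *Nsd2* fl/fl. *Kcnma1* encodes the BK channel, which opens with voltage and calcium, relaxes smooth muscle and secretes potassium from colonic crypts. It had 9 *Nsd2* fl/fl peaks and 10 *Nsd2* ΔIE peaks, the most of any channel gene by nearest gene. Of them, 8 in each library lay in intron 1. Inside the gene spans *Kcnma1* had 13 and 15 peaks, fewer than the 18 and 18 of *Kcnq1*. They covered 42932 bp and 37893 bp, a log2 ratio of -0.18 that was 0.57 among the strongest 50% of peaks. By all peaks the length was similar, and only 3 of the peaks overlapped between the libraries. *Kcnn3*, the small-conductance SK3 channel, had 7 peaks in *Nsd2* fl/fl, 3617 to 5731 bp wide, which spread from 21731 to 84912 bp downstream of the start site. Its 4 *Nsd2* ΔIE peaks were 1738 to 3747 bp wide and lay between the start site and 20761 bp downstream of it, so that only 1 pair overlapped. The covered length was 32465 bp against 11559 bp, a log2 ratio of -1.49. Among the strongest 50% of peaks of each library, which hold 1 and 2 of its peaks, this ratio was 0.33. *Kcnn1* had 3 peaks in each library, with 10671 bp against 7785 bp, just inside the limit at -0.45. With equal numbers of peaks in both lists its ratio was -0.85, past the limit.

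**Figure D3:**
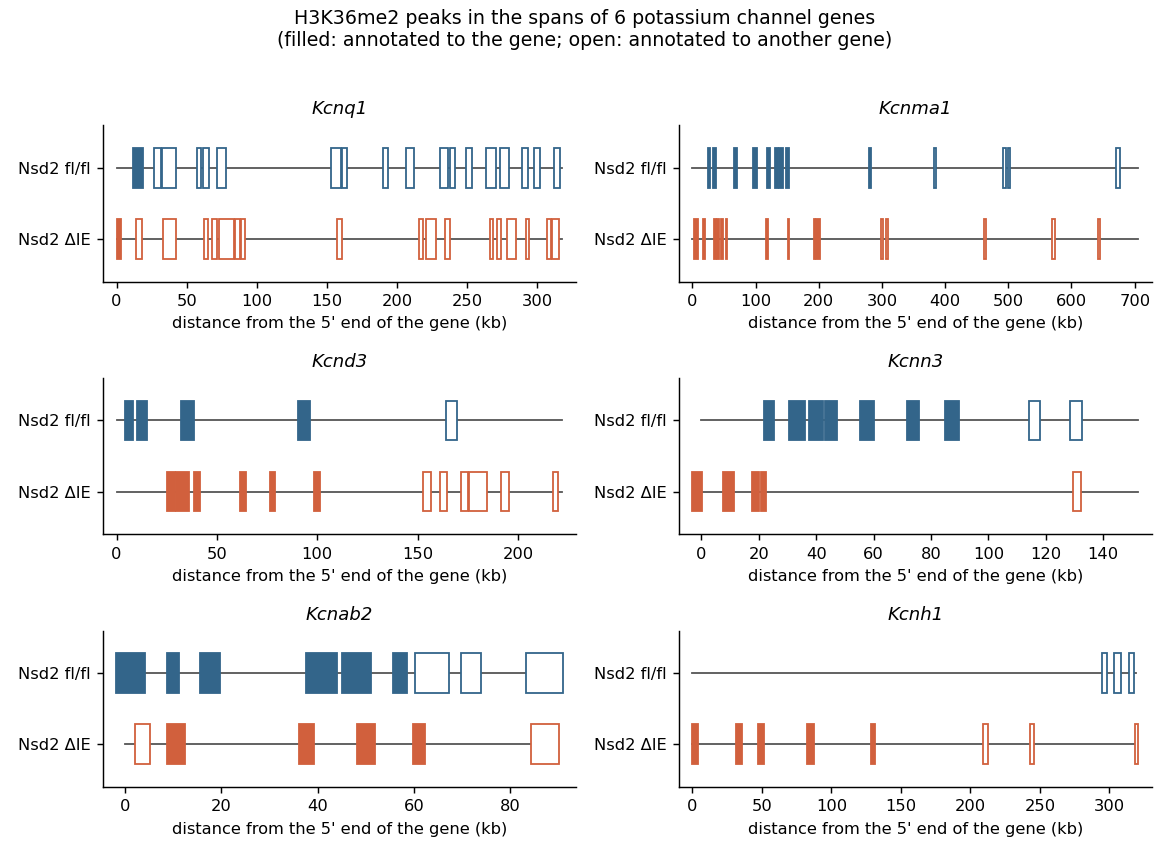
Peaks of each library along the spans of *Kcnq1*, *Kcnma1*, *Kcnd3*, *Kcnn3*, *Kcnab2* and *Kcnh1*, drawn to scale as boxes at their distance in kb from the 5′ end of the gene; filled boxes are annotated to the channel gene and open boxes to another gene. Of the filled *Kcnn3* boxes only 1 pair overlaps, and an open pair overlaps near the 3′ end, and 17 of the 18 *Kcnq1* boxes of each library are open.

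Among the inward rectifiers with peaks in both libraries, *Kcnj13* and *Kcnj11* had the log2 ratios farthest from 0. *Kcnj13*, a channel of transporting epithelia, had 10376 bp against 2740 bp (log2 ratio -1.92). Both *Nsd2* fl/fl peaks lay in exons of *Gigyf2*, the gene around it, and the *Nsd2* ΔIE peak at the *Kcnj13* promoter. *Kcnj11*, the pore of the ATP-sensitive channel, had 10291 bp against 2839 bp (-1.86), and its *Nsd2* fl/fl peak of 4326 bp covered the whole gene while no *Nsd2* ΔIE peak touched it. *Kcnj12* and *Kcnj4*, strong rectifiers of excitable cells, had 17484 bp against 8792 bp and 11833 bp against 5645 bp, with a promoter peak in both libraries. *Kcnj1*, the ROMK channel of the kidney, had 13184 bp and the glial channel *Kcnj10* had 5582 bp, both in *Nsd2* fl/fl only. *Kcnj16*, a partner of *Kcnj10*, had 9094 bp, *Kcnj14* 5845 bp and *Kcnj3* 3992 bp, all in *Nsd2* ΔIE only. Of the genes for G protein-gated channels, *Kcnj5* and *Kcnj6* had similar lengths, with log2 ratios of -0.41 and 0.10. The *Kcnj5* ratio was -0.99 with equal numbers of peaks in both lists and 0.59 inside the gene span.

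The two-pore channels carry the background leak of potassium. *Kcnk9*, an acid-sensitive channel of neurons, had 16531 bp in 4 peaks against 6135 bp in 2 (log2 ratio -1.43), and 3 of the 4 and both others lay in *Trappc9*. *Kcnk1* had 2891 bp against 7694 bp (1.41), and its *Nsd2* fl/fl peak was matched nearly in full, with 93.4% of the joint stretch shared. With equal numbers of peaks in both lists its ratio was 0.05, within the limit. *Kcnk2*, a stretch-sensitive channel of smooth muscle, had 11304 bp against 7555 bp, *Kcnk13* 18123 bp against 12383 bp and *Kcnk16* 4779 bp against 7949 bp, with log2 ratios of -0.58, -0.55 and 0.73. With equal numbers of peaks in both lists the *Kcnk16* ratio was 0.24, within the limit. *Kcnk5*, an epithelial leak channel, had 11197 bp against 10407 bp and promoter peaks in both libraries. *Kcnk7* and *Kcnk12* were similar as well, *Kcnk6* and *Kcnk18* had a peak in *Nsd2* fl/fl only, and *Kcnk10* and *Kcnk15* in *Nsd2* ΔIE only.

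Of the auxiliary subunits, the *Kcnip* genes stood on the side of more length. They encode the calcium-binding KChIP proteins that assemble with Kv4 channels such as the one of *Kcnd3*. *Kcnip3* had 5123 bp in 1 peak against 17080 bp in 4, *Kcnip2* 3223 bp against 10270 bp and *Kcnip4* 12099 bp against 26585 bp, with log2 ratios of 1.74, 1.67 and 1.14, while *Kcnip1* was similar at 0.27. Inside its span, where peaks of other genes count, *Kcnip3* had 14770 bp against 10793 bp. Among the strongest 50% of peaks the log2 ratio of *Kcnip4* was 0.23, within the limit. The *Kcnip2* and *Kcnip3* peaks of *Nsd2* fl/fl lay wholly inside wider *Nsd2* ΔIE peaks of 6520 and 6494 bp at the promoter, and the latter ranked 343 of its list. *Kcnab2*, a cytoplasmic Kv beta subunit, went the other way, with 28109 bp in 6 peaks against 13227 bp in 4 (-1.09), and its relative *Kcnab1* had 4083 bp in *Nsd2* fl/fl only. Of the BK beta subunits, *Kcnmb2* had 14339 bp in 2 peaks against 24157 bp in 7, a log2 ratio of 0.75 that was -0.42 among the strongest 50% of peaks. *Kcnmb3* was similar, and the *Kcnmb1* peak of *Nsd2* ΔIE lay in intron 1 of *Kcnip1*. *Kcne4* had 4722 bp at its promoter in *Nsd2* fl/fl, and the other *Kcne* genes had no peak.

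The annotation gives a peak to the gene with the nearest start site, so a long channel gene can lose peaks to genes that start within it. *Kcnq1*, which with *Kcne3* forms the basolateral channel of cAMP-driven secretion, is the clearest case. The lists give it 1 peak each, of 6832 bp in intron 1 in *Nsd2* fl/fl and of 3205 bp over the start site in *Nsd2* ΔIE, a log2 ratio of -1.09. Inside its span of 318 kb, however, each library had 18 peaks, and 17 of the 18 carried the names of *Gm28821*, the imprinted antisense RNA *Kcnq1ot1*, *4933417O13Rik* or *Cdkn1c*. The *Nsd2* fl/fl peak in intron 1 met an *Nsd2* ΔIE peak of 4491 bp that was annotated to *Gm28821*. In all, 96267 bp or 30.3% of the *Kcnq1* span was covered in the first library and 77340 bp or 24.3% in the second, a log2 ratio of -0.32, and 11 and 12 of the 18 peaks overlapped the other library. *Kcnq1ot1* had 3 of the *Nsd2* fl/fl peaks, of 7567, 3684 and 3349 bp, and 1 of the *Nsd2* ΔIE peaks, of 3371 bp. At *Kcnd3*, 1 *Nsd2* fl/fl peak and 6 *Nsd2* ΔIE peaks in the distal part of intron 2 or the 3′ UTR were annotated to *Ddx20*. With them 27181 bp of the span were covered against 47929 bp, so that the log2 ratio was 0.82 in place of -0.30. *Kcnh1* likewise held 3 *Nsd2* fl/fl peaks annotated to *Gm31011*, and its span had 11659 bp against 28243 bp.

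Over the spans of all 61 genes, 47 of 129 *Nsd2* fl/fl peaks and 49 of 158 *Nsd2* ΔIE peaks were annotated to another gene. Measured inside the spans, whatever the annotation, 22 channel genes had less, 23 more and 12 similar length, and 4 had no peak in their span. Of all 18187 listed genes, 3011 had length there in *Nsd2* fl/fl alone and 3215 in *Nsd2* ΔIE alone, beside 9 and 9 channel genes. With length in both libraries, 2234 had less, 1186 more and 2189 similar length, beside 13, 14 and 12 channel genes. No peak in the span was listed for 6352 of all genes. The channel counts stayed close to those by nearest gene, but only 39 of the 61 channel genes were on the same side by both measures. No share over all genes was computed for this, or for the peaks annotated to another gene. Inside the span *Kcnj13* (0 bp against 2740 bp), *Kcna5* (0 bp against 1550 bp) and *Kcnk2* (log2 ratio 0.69) went from less to more, and *Kcna10* (-1.29) and *Kcnk10* (-1.61) from more to less. *Kcnip3* (-0.45), *Kcnk16* (-0.09) and *Kcnb2* (-0.09) went from more to similar, and *Kcnk9* (-0.12) and *Kcnq1* from less to similar. Of the genes that were similar by nearest gene, *Kcnh6*, *Kcnj15*, *Kcnk5* and *Kcnn1* had less and *Kcna6*, *Kcnd3*, *Kcnj5* and *Kcnmb3* more. The direction held, with less length, at *Kcnn3* (-1.88), *Kcnh2* (-1.66) and *Kcnab2* (-1.14). It also held, with more length, at *Kcnc1* (1.04), *Kcnip2* (3.63), *Kcnip4* (2.01), *Kcnk1* (1.41), *Kcnf1* (1.23) and *Kcna2* (1516 bp against 3040 bp). Among the 40 channel genes with spans of 20 kb or more, *Nsd2* fl/fl peaks covered 8.53% of the summed span and *Nsd2* ΔIE peaks 7.55%, beside 9.05% and 7.56% over all 6347 such genes. At the 17 with spans of 100 kb or more the shares were 5.69% and 5.96%, beside 6.80% and 5.74% over all 1467 such genes.

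**Figure D4:**
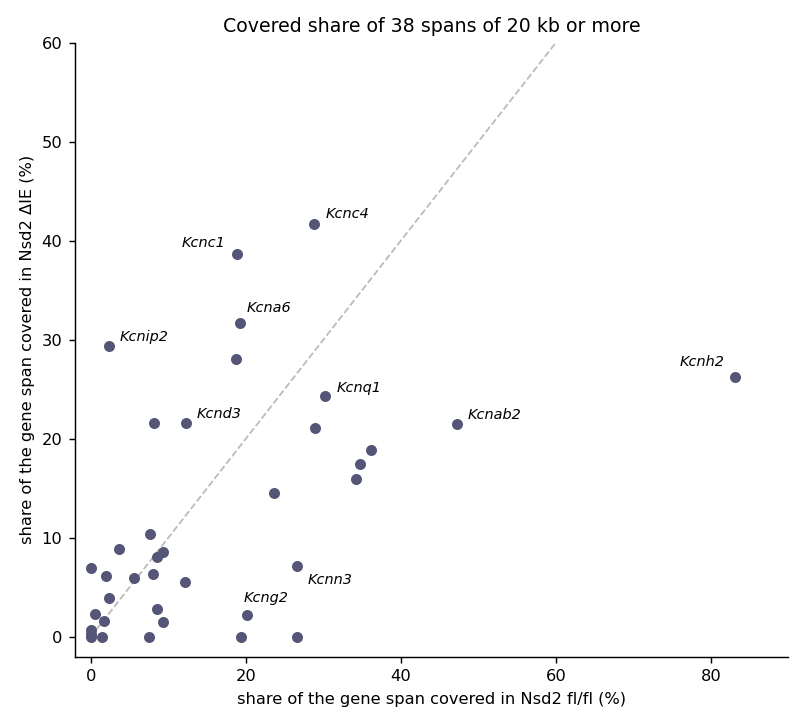
Share of the gene span covered by peaks, whatever gene they are annotated to, in *Nsd2* fl/fl (horizontal axis, %) and *Nsd2* ΔIE (vertical axis, %), for 38 potassium channel genes with spans of 20 kb or more; each point is 1 gene and the dashed line marks equal shares. *Kcnh2* (83.1% against 26.3%) lies farthest below the line, and *Kcnip2* (2.37% against 29.3%) lies far above it.

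Of the 108 *Nsd2* fl/fl peaks of the channel genes, 48 (44.4%, 95% Wilson interval 35.4% to 53.8%) overlapped an *Nsd2* ΔIE peak by at least 1 bp, and of the 139 *Nsd2* ΔIE peaks 49 (35.3%, 27.8% to 43.5%) overlapped an *Nsd2* fl/fl peak. Over all peaks the shares were 34.1% and 30.7%. The overlap was largest among the strongest peaks by summed signal, a value that depends on the width of a peak as well. In the strongest 25% of the *Nsd2* fl/fl list 19 of 27 channel peaks (70.4%) were shared, against 6 of 23 (26.1%) in the weakest, and over all peaks the shares were 55.6% and 21.7%. In *Nsd2* ΔIE the channel shares from the weakest to the strongest 25% were 17.1% of 35, 34.8% of 23, 23.8% of 42 and 64.1% of 39, so they did not rise at every step. The intervals at each step of strength are wide, and every one holds the share over all peaks. In 33 channel genes, 46 pairs of overlapping peaks were annotated to the same gene. Their highest points lay a median of 1667 bp apart, and 31 of the 46 (67.4%) were narrower in *Nsd2* ΔIE, beside 1895 bp and 74.9% over 6863 pairs of all genes. The other 9 genes with peaks in both libraries, among them *Kcnq1*, *Kcnj13*, *Kcnk9*, *Kcnip4* and *Kcna5*, had no overlapping pair.

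**Figure D5:**
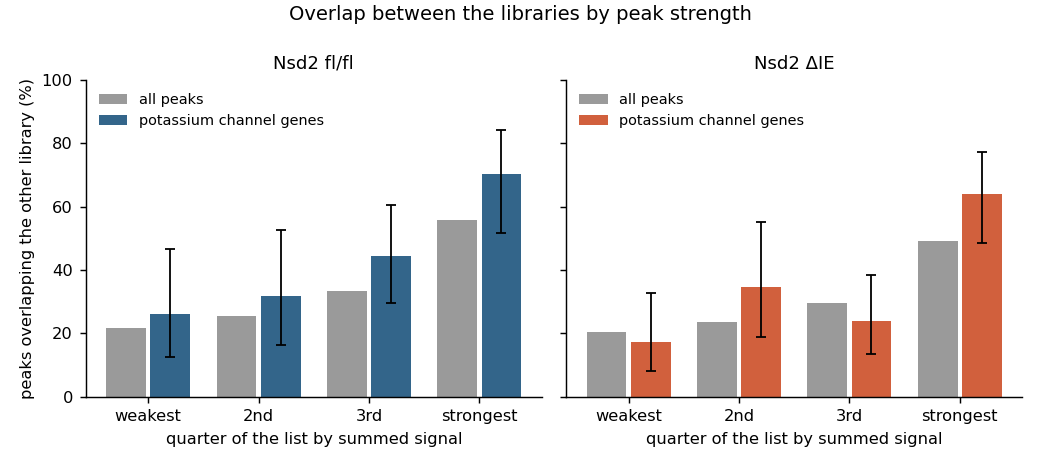
Share of peaks that overlap a peak of the other library, in percent, in 4 steps of equal size of each list in order of summed signal, for all peaks (grey) and for peaks of potassium channel genes (coloured), with 95% Wilson intervals on the latter for counting error only. In *Nsd2* fl/fl the channel share goes from 26.1% in the weakest step to 70.4% in the strongest.

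By position, a larger share of the channel peaks than of all peaks lay in intron 1. Intron 1 held 29 of 108 (26.9%, 19.4% to 35.9%) in *Nsd2* fl/fl and 30 of 139 (21.6%, 15.6% to 29.1%) in *Nsd2* ΔIE, against 7.44% and 8.0% of all peaks. Without *Kcnma1* the shares were 21.2% and 17.1%, and among peaks next to transcripts of 20 kb or more they were 36.8% and 29.3%, against 13.5% and 14.3% of all such peaks. Later introns held 11.1% and 13.7% of the channel peaks, beside 13.6% and 15.6% of all peaks. Promoters, within 3 kb of a start site, held 34 of 108 peaks (31.5%, 23.5% to 40.7%) in *Nsd2* fl/fl and 47 of 139 (33.8%, 26.5% to 42.0%) in *Nsd2* ΔIE, beside 32.1% and 27.9% of all peaks. A promoter peak was listed in both libraries for 15 channel genes, in *Nsd2* fl/fl alone for 11 and in *Nsd2* ΔIE alone for 20. These are 24.6%, 18.03% and 32.8% of the channel genes, beside 12.7%, 19.3% and 19.1% of all listed genes. Peaks between genes were fewer, at 7.41% against 18% of all peaks in *Nsd2* fl/fl and 11.5% against 20.1% in *Nsd2* ΔIE.

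The DNA before 4 start sites is shown because a peak lay over the start of the whole gene there and the transcript could be matched to the RefSeq promoter table by its length. The stretches are the 250 bases upstream of the start site in GRCm38.p6, a build other than that of the peak lists, written 5′ to 3′ on the strand of the gene with CG pairs in capitals. *Kcnk16*, at chr14:20269270-20269519 on the minus strand, had a peak over the start in both libraries. *Kcna5*, at chr6:126535556-126535805 on the minus strand, and *Kcnn3*, at chr3:89519914-89520163 on the plus strand, had it in *Nsd2* ΔIE, and *Kcnk18*, at chr19:59219398-59219647 on the plus strand, in *Nsd2* fl/fl.
Kcnk16: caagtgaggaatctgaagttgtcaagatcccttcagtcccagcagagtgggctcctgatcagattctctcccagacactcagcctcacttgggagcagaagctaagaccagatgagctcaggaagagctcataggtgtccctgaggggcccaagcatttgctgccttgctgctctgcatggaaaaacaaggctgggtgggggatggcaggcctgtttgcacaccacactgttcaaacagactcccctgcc
Kcna5: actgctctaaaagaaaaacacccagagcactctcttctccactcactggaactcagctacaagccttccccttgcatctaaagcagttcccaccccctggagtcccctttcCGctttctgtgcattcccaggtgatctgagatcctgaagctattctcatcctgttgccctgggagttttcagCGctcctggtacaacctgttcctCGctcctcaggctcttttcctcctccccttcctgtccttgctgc
Kcnn3: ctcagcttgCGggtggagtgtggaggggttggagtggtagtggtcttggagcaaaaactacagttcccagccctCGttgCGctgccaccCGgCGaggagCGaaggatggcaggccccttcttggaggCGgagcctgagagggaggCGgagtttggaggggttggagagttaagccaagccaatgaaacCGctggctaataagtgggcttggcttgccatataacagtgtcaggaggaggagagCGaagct
Kcnk18: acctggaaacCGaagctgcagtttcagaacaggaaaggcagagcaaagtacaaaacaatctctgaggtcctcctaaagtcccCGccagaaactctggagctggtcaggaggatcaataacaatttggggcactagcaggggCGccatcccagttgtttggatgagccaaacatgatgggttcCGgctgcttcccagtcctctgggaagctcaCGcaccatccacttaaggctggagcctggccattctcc
These stretches held 0 CG pairs at *Kcnk16*, 3 at *Kcna5*, 10 at *Kcnn3* and 5 at *Kcnk18*, and none held TATAAA or GGGCGG on either strand. Over the promoter table, which has 300 bases per promoter, 92 promoters of 67 channel symbols had a median of 9 CG pairs against 7 over all 32851. TATAAA, on either strand, was found in 5.43% of the channel promoters and 13.6% of all, and GGGCGG, on either strand, in 47.8% and 35.7%. Channel promoters of genes with a promoter peak had a median of 9.5 CG pairs, and those of genes without had 8.5.

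Sorted by the cells in which the channels are best known, no group moved as a whole. Of 10 epithelial channel genes, 7 had a peak, and 2 had less, 3 more and 2 similar length. The *Kcnq1* partners *Kcne2* and *Kcne3* had none, nor had *Kcnn4*, the calcium-activated channel of crypt cells. Of 15 genes known from muscle and interstitial cells, 12 had a peak, and 6 had less (*Kcnn3*, *Kcnj11*, *Kcna5*, *Kcnk2*, *Kcnh2*, *Kcne4*), 2 more (*Kcnmb1*, *Kcnq5*) and 4 similar length. Of 10 nerve genes, 7 had a peak, with 3 less, 3 more and 1 similar. These counts are by nearest gene, by which 43.3% of all listed genes had less and 39.7% more length. Inside the spans *Kcna5*, *Kcnk2* and *Kcnd3* had more length, *Kcnk5* less, and *Kcnq1* and *Kcnk9* similar length. *Kcnj13* had a peak there in *Nsd2* ΔIE only, and *Kcne4* and *Kcnmb1* had none. *Kcnn3*, *Kcnj11* and *Kcnh2* still had less and *Kcnq5* more. Of 30 genes that work beside the channels in secretion and excitation, 21 had a peak, with 10 less, 5 more and 6 similar. These included the chloride channel *Ano1*, with 55507 bp against 28461 bp, the channel regulator *Nedd4l*, with 36767 bp against 6529 bp, and the Kv4 partner *Dpp6*, with 44025 bp against 42248 bp.

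Markers of the cell types in the tissue were checked by the same measure. Over all listed genes 43.3% had less and 39.7% more length. Of 10 epithelial markers 7 had a peak, with 2 less and 5 more. The 5 with more included *Vil1* (13184 bp against 23472 bp), the villin gene, whose promoter drives the Cre of *Nsd2* ΔIE mice. Whether the transgene adds to the *Vil1* peaks was not tested. Of 6 smooth muscle markers 4 had a peak, with 2 less, 1 more and 1 similar. Of the latter, *Myh11* (30046 bp against 7771 bp) and *Cnn1* had less length. *Des* had a peak in *Nsd2* ΔIE only, *Tagln* was similar, and *Acta2* and *Actg2* had no peak. *Kit* and *Ano1*, which mark interstitial cells, both had less length, and *Etv1*, on the same list, had no peak. Of 6 neuronal markers 4 had a peak, with 1 less and 3 more, and of 4 glial markers 3, with 1 less, 1 more and 1 similar. Of 4 immune markers 1 had a peak, and of 3 fibroblast markers none. The part of the cell mix in the differences above was not tested. At *Nsd2* itself, the lists hold 1 peak, of 3766 bp, from *Nsd2* ΔIE, and a histone peak does not check the deletion.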

How the data were processed

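H3K36me2 CUT&Tag was measured in 2 colon libraries, 1 per genotype. The submitters' processing notes name Bowtie2, SEACR, deepTools and ChIPseeker, without roles, and the build hg38, which is human and was not used. The authors called peaks per library and deposited for each its position, width and distance to the nearest TSS in bp, and a summed signal, with no scaling for depth stated and with annotation to the nearest gene. Depth and the build of the lists are not given in the sources used here, and coordinates are printed as the lists have them.

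Members, gene lists and limits were chosen with earlier results of these data known. Peaks were counted, widths summed per gene, overlaps of at least 1 bp found and Wilson intervals computed with Python 3.11.15, pandas 2.3.3, numpy 2.4.6 and scipy 1.17.1. Gene spans join the transcripts named in the lists. The functions were tested on simulated lists with known answers. Named genes were those on the epithelial, muscle and nerve lists, with overlapping pairs, with the 5 longest lengths, falls or rises, with promoter peaks in both libraries or with the 3 densest peaks per library; other genes were named to complete a family, after their values were seen. Alternatives are given in the closing section. Symbols and promoters came from RefSeq tables of GRCm38.p6. Values of 3 of the channel genes are not reported here or drawn singly, although the counts include them.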

Additional observations from a re-analysis of the deposited data

How the results depend on the processing

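Of 419 values computed under an alternative, 340 stayed close (shares within their interval, single log2 ratios within 0.5 of the reported value, and counts and medians likewise near it), 68 moved further and 11 medians or ratios past the limit changed sign. Part of the 340 were close by construction. With autosomes only, no channel value changed, because no channel peak lies elsewhere. Centring shifts every single ratio by the same amount, the median of -0.32 over all genes, which is inside the 0.5 allowed. In the strongest 50% of each list the channel genes had 63 and 81 peaks in *Nsd2* fl/fl and *Nsd2* ΔIE, the median log2 ratio was 0.23, and the ratios of *Kcnmb2* and *Kcnn3* were -0.42 and 0.33. The median was also above 0 after centring (0.18) and with promoter peaks only (0.036). A reciprocal overlap of 50% lowered the shared peaks to 25% and 18.7%. Similar length was found for 24 genes with a log2 limit of 1 and for 5 with promoter peaks only. Counting only genes with peaks in both libraries left 14 with less and 13 with more length, as fewer genes are counted. The split of less to more length was 27 to 19 with equal numbers of peaks per list and 16 to 27 by number of peaks. The following alternatives were chosen after seeing the data. With peaks in or beside the gene only, the log2 ratios of *Kcna2* and *Kcnf1* were -0.50 and -1.03. With the length inside the gene span, those of *Kcna10*, *Kcnip3*, *Kcnk16* and *Kcnk2* were -1.29, -0.45, -0.093 and 0.69. *Kcna2* and *Kcnf1* kept more length in *Nsd2* ΔIE by the length inside the span. Apart from the settings whose construction is named, the cause was not tested. A stricter threshold on p or q was not run, as the lists hold neither. No paired analysis was possible because there is a single library per genotype and nothing was tested. Depth is not known, and a region whose signal is too weak to be listed looks like one that lacks the mark.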

Other observations

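Some channel genes lie within 100 kb of each other. *Kcnj5* and *Kcnj1*, 50652 bp apart on chromosome 9, had 13882 bp against 10450 bp and 13184 bp against 0 bp, in the order *Nsd2* fl/fl, then *Nsd2* ΔIE. *Kcna2* and *Kcna10*, 68137 bp apart on chromosome 3, both had more length in *Nsd2* ΔIE by nearest gene. Inside the spans *Kcna2* still had more (1516 bp against 3040 bp), but *Kcna10* had less (996 bp against 407 bp). With peaks in or beside the gene only, the log2 ratio was -0.50 for *Kcna2* and 0.85 for *Kcna10*. *Kcnk5* and *Kcnk16*, 79592 bp apart on chromosome 14, each had a promoter peak in both libraries. By the pathway terms that the authors' annotation carries, 28 of the 61 channel genes had a term, most often cholinergic synapse, with 9 channel genes, then gastric acid secretion and insulin secretion, with 7 each.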
